A study of Homo sapiens with 6 samples.

Results

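The genes described here encode LSD1 (KDM1A), its paralog LSD2 (KDM1B) and subunits of the CoREST complex, namely the scaffolds RCOR1, RCOR2 and RCOR3, the deacetylases HDAC1 and HDAC2, the histone reader PHF21A and the DNA-binding protein HMG20B. They were taken as the 9 rows of the count table, out of 60240 genes listed, whose Ensembl identifiers carry these symbols, and all 9 had enough counts to be tested. RNA-seq was performed in HCT116, a human colorectal carcinoma cell line, in 3 wild-type (WT) libraries and 3 LSD1 knockout (LSD1 KO) libraries. The study's methods give the medium for HCT116 cells in general and name no further treatment for these libraries. No mock editing of WT cells is described. The knockout was made by transient CRISPR/Cas9 editing followed by puromycin selection and expansion of single clones, so a KO culture is clonal, whereas the number of clones behind the 3 KO libraries is not given in the sources used here. The study's methods describe its experiments in general as biologically replicated. The labels do not say whether libraries of a group came from separate cultures, and if they did not, p-values measure only a technical spread between these libraries. If the KO libraries came from a single clone, traits of that clone cannot be told apart from the knockout, even with separate cultures.

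LSD1 is a flavin-dependent amine oxidase that removes methyl groups from mono- and dimethylated lysine 4 of histone H3. It works in a complex with CoREST (RCOR1), which holds LSD1 on the nucleosome and links it to HDAC1 or HDAC2, so that demethylation and deacetylation act on the same chromatin. PHF21A (BHC80) binds the unmethylated lysine 4 that LSD1 leaves behind, and HMG20B (BRAF35) carries an HMG box that contacts DNA. KDM1B has a similar catalytic domain and acts outside CoREST.

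The guide used for the knockout targets exon 1 of KDM1A. Its site, shown because it ties the KO label to a position in the gene, was read from the GENCODE transcript and lies on the minus strand at chr1:23346270-23346289 of GRCh37, within the exon spanning chr1:23345961-23346440. It covers positions 181 to 200 of the 2628-base coding sequence, in codons 61 to 67, and is present in 26 of the 36 annotated KDM1A transcripts. In the following sequence, written 5′ to 3′ on the minus strand, capitals mark the 20-base target and the adjoining GGG PAM.
KDM1A exon 1 target: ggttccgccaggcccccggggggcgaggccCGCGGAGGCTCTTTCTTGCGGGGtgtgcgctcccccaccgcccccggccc
The counts are summed over all transcripts of a gene, and reads across the edited site were not analysed here.

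The libraries held between 25379279 and 29186963 counts, which puts 3 counts at 0.0994 to 0.114 CPM (counts scaled to library size with TMM factors), far below the level of each of the 9 genes. WT and KO libraries of the same number deviated from their group means together, and 38.6% of the 17672 genes tested differed between replicate 2 and replicates 1 and 3, so results with the replicate number as a block are given where they bear on a gene. Epithelial markers EPCAM, CDH1, KRT8, KRT18, KRT19 and CDX2 were expressed, whereas VIL1 stayed at or below 0.302 CPM and CDX1 had no count. Of the leukocyte, endothelial and fibroblast markers with a row, COL1A1 was at 20.4 to 23.9 CPM in WT and 30.1 to 34.0 CPM in KO libraries, and all others stayed at or below 1.25 CPM. With the block, COL1A1 rose (log2 fold change 0.52, edgeR q = 0.0628) and EPCAM fell (-0.98, edgeR q = 0.0788), while COL1A2, COL3A1, DCN and LUM were near 0. Of the other epithelial markers, KRT18 (-0.47), CDH1 (-0.34) and KRT8 (-0.15) were lower with the block, and CDX2 was at 0.013. None of these passed the threshold (lowest edgeR q = 0.196, for CDH1). KRT19 went the other way, at 548, 1156 and 789 CPM in WT and 905, 1460.2 and 966 CPM in KO libraries. It was higher in all 3 pairs without passing the threshold (0.45 with the block, edgeR q = 0.123). The part of these differences in the results below was not tested.

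KDM1A, the edited gene, was expressed at 231, 224 and 214 CPM in WT libraries 1, 2 and 3 and at 29.9, 27.6 and 27.8 CPM in the corresponding KO libraries. Each KO library was far below each WT library, with 734 to 837 counts against 5927 to 6451, a separation in this direction that was found for 3.51% of all tested genes. The mean fell from 223 ± 8.78 to 28.4 ± 1.30 CPM (SD, n = 3), that is, to 12.7% of the WT level. The log2 fold change was -2.97 (SE 0.15, 95% interval -3.32 to -2.62), and KDM1A passed the threshold of q under 0.1 (edgeR quasi-likelihood test with Benjamini-Hochberg adjustment over all tested genes, q = 0.000451). It was the only member called, 1 of 9 against 0.00566% of all tested genes, and the only gene called at all in this fit. With the block, KDM1A was again the only member called (log2 fold change -2.97, edgeR q = 9.60e-06), against 1.6% of all tested genes (1.05% higher and 0.549% lower). DESeq2 likewise called KDM1A alone among the 9, against 0.37% of the genes it tested. KDM1A also varied little within groups, since its spread between libraries of a group (0.060 on the log2 scale) was at the 0.809 percentile of tested genes. In rank, KDM1A RNA moved from the 96.2 percentile of tested genes by mean CPM in WT to the 59.8 percentile in KO libraries. KDM1A RNA was thus lowered and not absent. The study reports that it checked LSD1 depletion by Sanger sequencing and immunoblotting, and the RNA level here does not measure LSD1 protein. In bulk RNA, fewer cells with the transcript and less transcript per cell cannot be told apart.

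**Figure D1:**
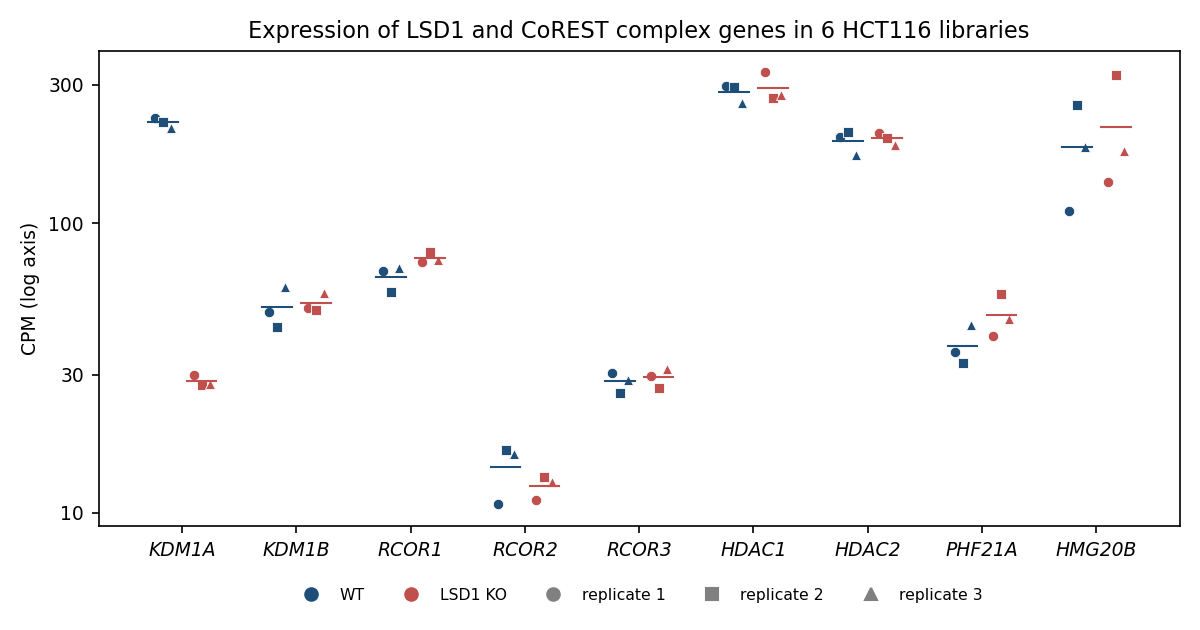
CPM of the 9 genes on a log axis in each WT (blue) and LSD1 KO (red) library, with marker shape for the replicate number and a line at the group mean. KDM1A separates by group (223 against 28.4 CPM), RCOR1 separates narrowly, and HMG20B spreads by replicate number.

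None of the other 8 genes was called, either without or with the block or by DESeq2. At an unadjusted p under 0.05, edgeR gave 0 of the 8 without the block and 1 (PHF21A) with it, and DESeq2 gave 0, against 3.12%, 13.4% and 3.2% of all tested genes, so PHF21A as 1 of 8 was near the background share. Their log2 fold changes ran from -0.22 to 0.35 with a median of 0.045, beside a median of 0.00082 over all tested genes, and q was 0.999 for each without the block.

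KDM1B, the LSD1 paralog, was at 49.5, 43.9 and 60.3 CPM in WT and 51.1, 50.2 and 57.2 CPM in KO libraries. The groups overlapped, with means of 51.2 ± 8.30 and 52.8 ± 3.82 CPM (SD, n = 3). The log2 fold change of 0.044 had a 95% interval of -0.34 to 0.43, or -0.16 to 0.27 with the block. Thus a rise of KDM1B RNA beyond 1.35-fold, or 1.21-fold with the block, lies outside the interval.

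**Figure D2:**
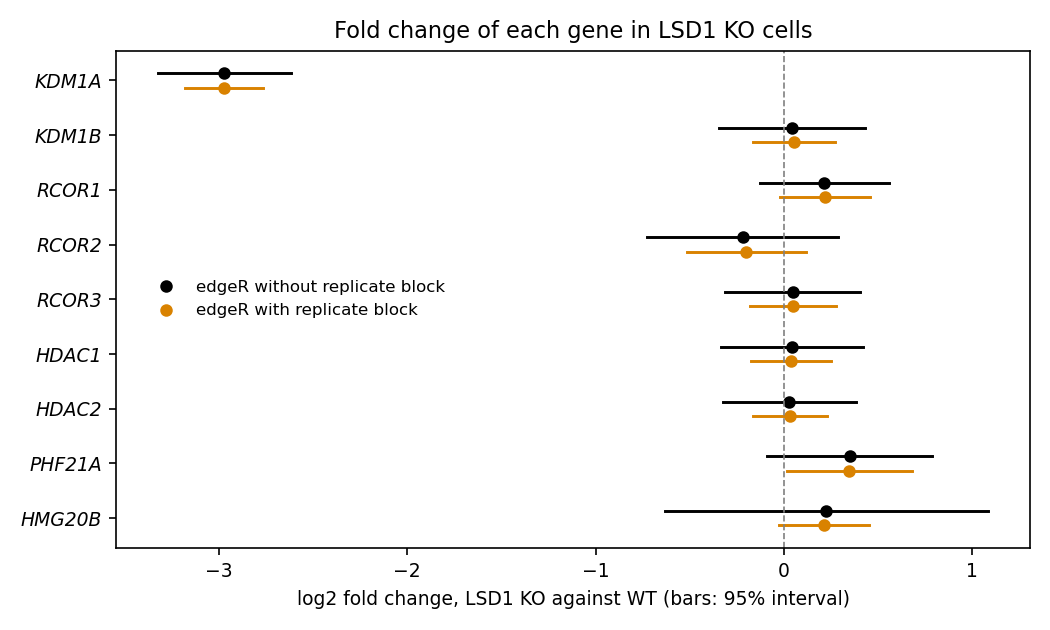
Log2 fold change of each gene in LSD1 KO against WT libraries with its 95% interval, from the edgeR fit without (black) and with (orange) the replicate block. KDM1A sits at -2.97 in both, and the only other interval that does not include 0 is that of PHF21A with the block (0.015 to 0.68).

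Among the CoREST scaffolds, RCOR1, which bridges LSD1 to the deacetylases and the nucleosome, was at 68.3, 57.8 and 69.9 CPM in WT and 73.5, 79.5 and 74.6 CPM in KO libraries. Each KO library was above each WT library, as was the case for 4.23% of all tested genes. The means were 65.4 ± 6.60 and 75.9 ± 3.21 CPM (SD, n = 3), and the exact permutation test gave p = 0.1, the smallest value 3 against 3 libraries allow. The log2 fold change of 0.21 (95% interval -0.13 to 0.56) did not pass the threshold without the block, nor with it (edgeR q = 0.412). Most of the difference came from replicate 2, with log2 differences of 0.10, 0.46 and 0.093 in pairs 1, 2 and 3, and the blocked log2 fold change without pair 2 was 0.081.

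RCOR2 is the scaffold best known from embryonic stem and neural progenitor cells and was the least abundant of the 9 by CPM. It was at 10.7, 16.5 and 16.0 CPM in WT and 11.1, 13.3 and 12.7 CPM in KO libraries, from 283 to 482 counts. The groups overlapped, and the low value of WT replicate 1 widened the WT spread. Its log2 fold change was -0.22 (95% interval -0.73 to 0.29), and it was -0.39 without WT replicate 1, -0.12 without WT replicate 2, -0.14 without WT replicate 3 and -0.15 without KO replicate 1. Of its 31-base words, 2.95% also occur in another annotated gene. RCOR3, a further paralog of RCOR1, was at 30.5, 26.0 and 28.8 CPM in WT and 29.6, 26.9 and 31.4 CPM in KO libraries. The groups overlapped, with a log2 fold change of 0.046 (95% interval -0.31 to 0.40).

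HDAC1 and HDAC2 are the catalytic deacetylase subunits, shared with the NuRD, SIN3 and MiDAC complexes. HDAC1 was at 296, 296 and 260.4 CPM in WT and 332, 269 and 276 CPM in KO libraries. HDAC2 was at 198, 207 and 172 CPM in WT and 205, 197 and 186 CPM in KO libraries. In both genes the groups overlapped and the within-pair differences had mixed signs. The log2 fold changes were 0.042 (95% interval -0.34 to 0.42) for HDAC1 and 0.028 (-0.33 to 0.38) for HDAC2. With the block, the intervals narrowed to -0.17 to 0.25 and -0.17 to 0.23, respectively. Of the 31-base words in the canonical HDAC1 transcript, 5.03% also occur in other genes, mostly in the pseudogene HDAC1P2, so a small part of its counts is uncertain. For HDAC2, 2.61% of these words also occur elsewhere, spread over 2449 other genes.

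PHF21A, the reader of unmethylated histone H3 lysine 4, had the largest positive log2 fold change of the 9 genes without the block. It was at 35.9, 32.8 and 44.6 CPM in WT and 40.8, 57.0 and 46.6 CPM in KO libraries, and the groups overlapped because WT replicate 3 exceeded KO replicate 1. The log2 fold change was 0.35 (SE 0.19, 95% interval -0.089 to 0.79). With the block it was 0.35 (95% interval 0.015 to 0.68) with an unadjusted p of 0.0426 in the edgeR test, which did not pass after adjustment (q = 0.351). PHF21A and RCOR1 were the 2 of 9 genes higher in KO libraries in all 3 pairs, against 18.8% of all tested genes, and in PHF21A pair 2 carried most of the difference (log2 differences 0.18, 0.80 and 0.062). Without pair 2, the blocked log2 fold change was 0.10.

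HMG20B, the HMG-box subunit, varied most. It was at 110.2, 256 and 184 CPM in WT and 139, 326 and 178 CPM in KO libraries, so replicate 2 was the highest in both groups. The spread between libraries of a group was at the 93.2 percentile of tested genes. Accordingly, the comparison of groups was imprecise, with a log2 fold change of 0.23 (95% interval -0.63 to 1.08). With the block, the interval was -0.028 to 0.45 (edgeR q = 0.432).

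When replicate 2 was compared with replicates 1 and 3 in the model with group and replicate number, HMG20B was 1.93-fold higher (95% interval 1.63 to 2.29, edgeR q = 0.00152). The log2 difference was 0.85 within WT and 1.05 within KO libraries. HMG20B was the only member called in this comparison, 1 of 9 against 38.6% of all tested genes, 20.6% being called higher and 18.1% lower. For RCOR1 and PHF21A, replicate 2 was low in WT (log2 differences -0.26 and -0.29) and high in KO libraries (0.10 and 0.39). HMG20B shares 369 exonic bases with MFSD12 on the opposite strand, and strand use was not stated for the counting, so reads in that stretch may belong to either gene. This overlap covers 9.57% of the HMG20B exon bases. MFSD12 was counted 2440, 3275 and 3360 times in the WT libraries and 2603, 3311 and 2682 times in the KO libraries. HMG20B was counted 2917 to 8849 times. Reads in the shared stretch were not separated, so its part in the spread of HMG20B was not tested.

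**Figure D3:**
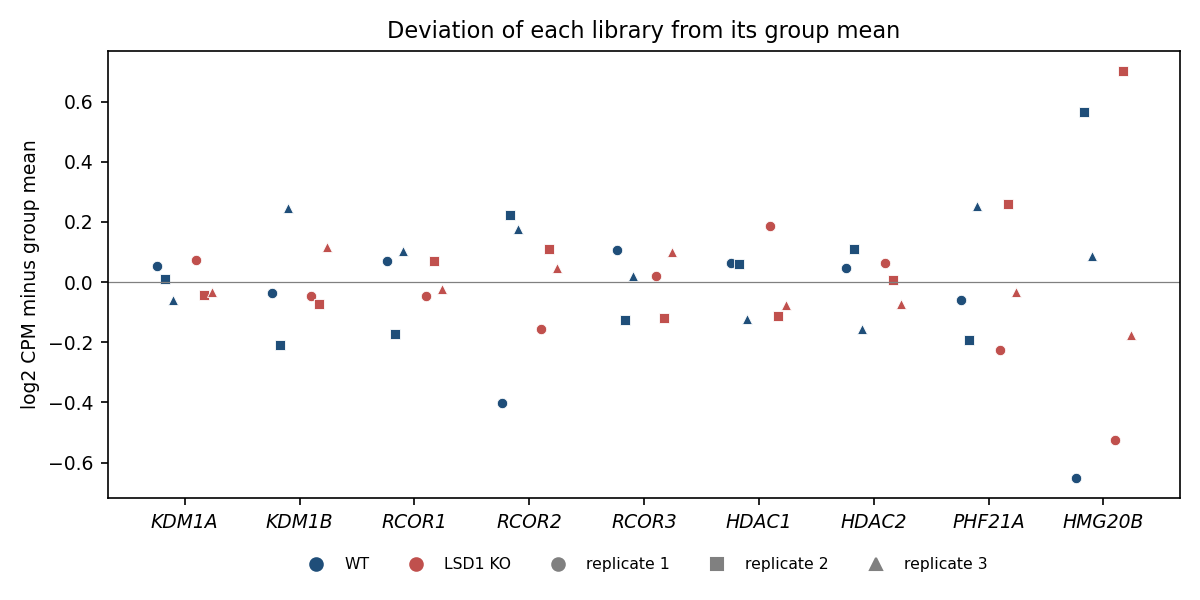
Log2 CPM of each gene minus its group mean, with WT libraries in blue, LSD1 KO libraries in red and marker shape for the replicate number. Squares (replicate 2) of HMG20B lie far above the mean in both groups, whereas those of RCOR1 and PHF21A lie below it in WT and above it in KO libraries.

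Levels between genes were compared as CPM per kb of the canonical transcript. In WT libraries, the order by mean CPM per kb was HDAC1 (134), HMG20B (116), KDM1A (72.3), HDAC2 (19.8), RCOR1 (11.4), KDM1B (11.3), RCOR3 (6.35), PHF21A (5.07) and RCOR2 (4.94). HDAC1 and HMG20B, HMG20B and KDM1A, RCOR1 and KDM1B, RCOR3 and PHF21A, and PHF21A and RCOR2 overlapped between libraries, so their order is not beyond the spread. KDM1A RNA per kb was thus above that of every scaffold in every WT library. In KO libraries, KDM1A dropped from rank 3 to rank 6, with a mean of 9.22 CPM per kb (range 8.94 to 9.70), below KDM1B (11.6, range 11.1 to 12.6) and above RCOR3 (6.55, range 6.02 to 7.02), without overlap with either. The other 8 genes kept their relative order, with HDAC1 at 138 and RCOR2 at 4.24 CPM per kb. The order depends on the length used. By coding length, HDAC2 (131 CPM per kb) was above KDM1A (84.9) in WT libraries, and in KO libraries KDM1A (10.8, range 10.5 to 11.4) was at rank 8, below RCOR3 (17.7, range 16.2 to 18.9) without overlap. By the union of all exons, KDM1A was at rank 9 in KO libraries, with a range that overlapped that of PHF21A.

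Shares among paralogs were then calculated within each library from the same CPM per kb. KDM1B made up 12.7%, 11.8% and 16.1% of the summed KDM1A and KDM1B level in WT and 53.7%, 55.3% and 58.3% in KO libraries. The mean share was 13.5% ± 2.28 in WT and 55.8% ± 2.34 in KO libraries (SD, n = 3), a difference of 42.3 percentage points (exact permutation test, two-sided p = 0.1, 0.25 after Benjamini-Hochberg adjustment over 5 shares). The share itself depended on the length, with 42.7% in WT and 85.8% in KO libraries by the union of all exons, a difference of 43.1 percentage points. Within this pair KDM1A fell, whereas KDM1B itself did not pass the edgeR test. The sum contains the edited gene, so its fall raises the KDM1B share without any change in KDM1B. The exact test of this share therefore does not bear on the KDM1B level. Its exact permutation p = 0.1 is the smallest that 3 against 3 libraries allow. RCOR1 made up 50.1% ± 3.23 of the 3 scaffolds in WT and 55.0% ± 1.68 in KO libraries (exact permutation p = 0.1, adjusted 0.25). The difference was 9.93 percentage points in pair 2 against 1.95 and 2.75 in pairs 1 and 3. By the union of all exons the RCOR1 shares of the groups overlapped, with means of 57.3% in WT and 62.7% in KO libraries (exact permutation p = 0.2). RCOR2 held 21.8% ± 5.02 and 17.7% ± 1.20 (exact permutation p = 0.3), and RCOR3 28.1% ± 2.10 and 27.3% ± 2.33 (exact permutation p = 0.7), in WT and KO libraries, respectively. HDAC2 was the steadiest, with 12.8% ± 0.339 of the summed HDAC1 and HDAC2 level in WT and 12.8% ± 0.938 in KO libraries (exact permutation p = 1). By coding length the HDAC2 share was 40.1% and 40.0%, so its size depended on the length used while the groups stayed close.

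**Figure D4:**
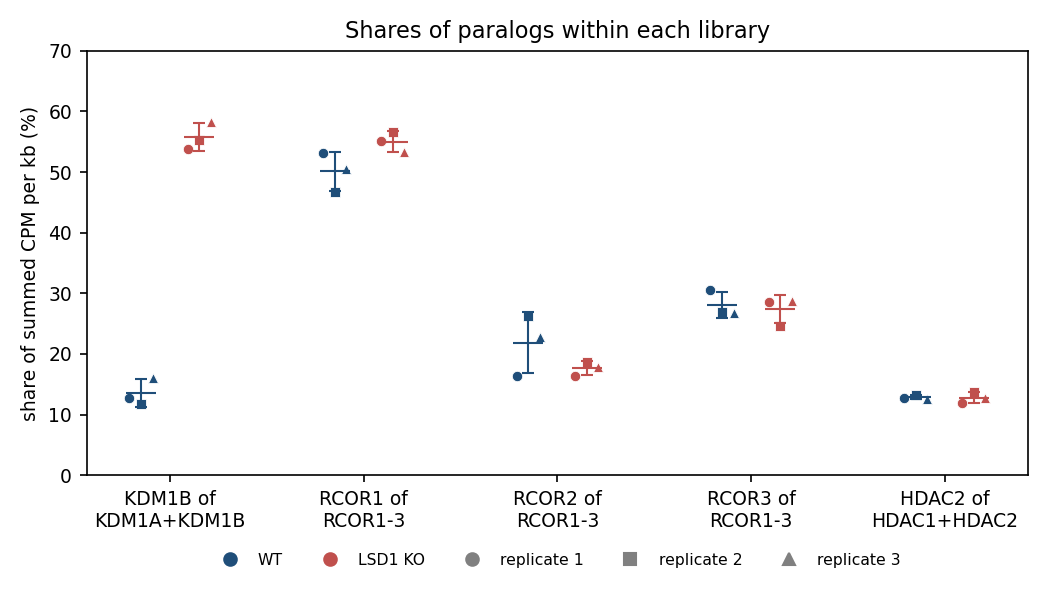
Share of each paralog in the summed CPM per kb of its family within each WT (blue) and LSD1 KO (red) library, with group mean and SD. The KDM1B share is 13.5% in WT and 55.8% in KO libraries, and the HDAC2 share is 12.8% in both.

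To place the subunits among their partners, 52 genes in 6 lists were examined, of which 51 were tested. None was called without or with the block in edgeR or by DESeq2, and the numbers at an unadjusted p under 0.05 were 1, 7 and 1, respectively. With 3.12%, 13.4% and 3.2% of all tested genes under that p, the count with the block was near the background share. The median log2 fold change of the tested list genes was -0.039. Among 14 other LSD1-CoREST partners, the median was 0.023, and the smallest p-values with the block belonged to the zinc finger proteins ZMYM2 (log2 fold change 0.34, edgeR q = 0.165) and ZNF217 (0.58, edgeR q = 0.188). ZNF217 was at 48.0, 37.6 and 50.2 CPM in WT and 55.0, 82.8 and 67.0 CPM in KO libraries, with the widest gap again in pair 2. The groups did not overlap for ZNF217, nor for ZMYM2, which was at 53.4 to 66.2 CPM in WT and 73.9 to 81.2 CPM in KO libraries. Among the 51 tested list genes, only these had each KO library above each WT library, which was the case for 4.23% of all tested genes.

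Other complexes share HDAC1 and HDAC2 with CoREST. For 12 NuRD genes the median log2 fold change was -0.061, and CDK2AP1 (-0.33 with the block, edgeR q = 0.227) and the remodeller CHD3 (-0.24, edgeR q = 0.417) had the smallest p-values. The 11 SIN3 genes had a median of -0.054, with ING2 (-0.38 with the block, edgeR q = 0.349) and BRMS1 (-0.24, edgeR q = 0.468) in front. For MiDAC, MIDEAS (-0.078) and DNTTIP1 (-0.11) were tested, and ZNF541 was too low. In the list of NCoR subunits and other class I deacetylases, 7 genes had a median of 0.017, and TBL1X was at -0.25 with the block (edgeR q = 0.349). The 5 genes linked to LSD1 protein turnover had a median of -0.082, with the ubiquitin ligase JADE2 (-0.14 with the block, edgeR q = 0.648) and the deubiquitinase USP28 (-0.10, edgeR q = 0.714) first.

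**Figure D5:**
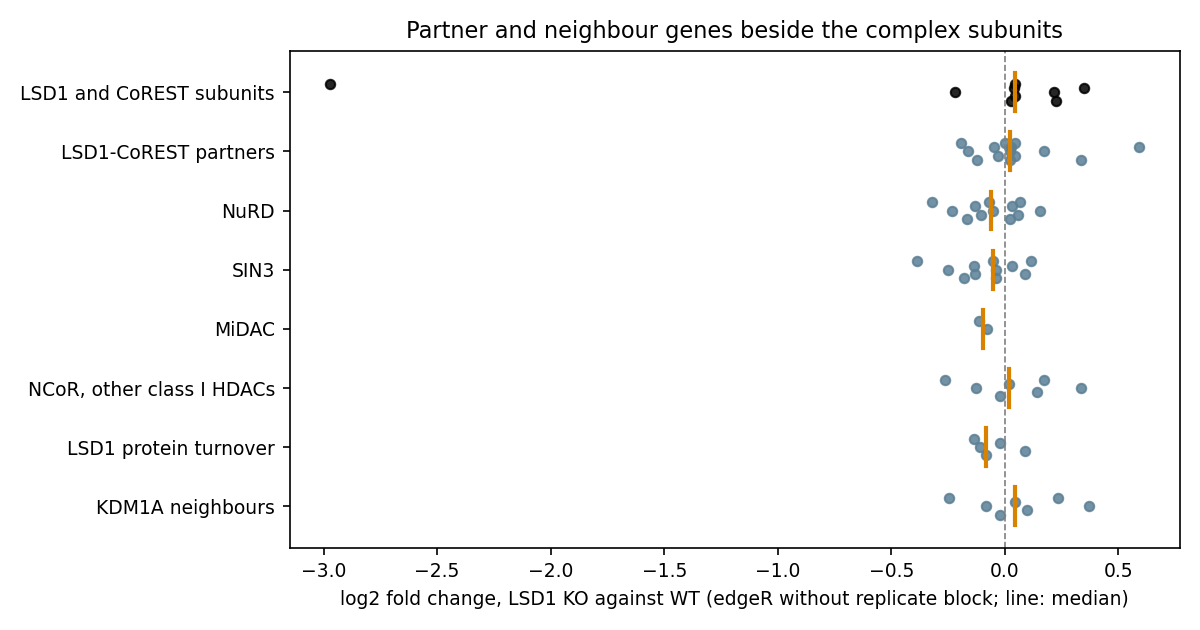
Log2 fold change in LSD1 KO against WT libraries (edgeR without the block) of the LSD1 and CoREST subunits (black) and of the genes of 6 partner lists and the KDM1A neighbours (blue-grey), with an orange line at each median. KDM1A at -2.97 is the only gene below -0.5, and ZNF217 at 0.59 is the only one above 0.5.

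KDM1A lies at chr1:23345936-23410182 on the plus strand of GRCh37. Of 14 protein-coding genes that start within 500 kb of its start, 13 had a row and 7 were tested, and none was called without or with the block or by DESeq2. At an unadjusted p under 0.05 the numbers were 0, 1 and 0, where 13.4% of all tested genes had such a p with the block. The gene with the smallest p was HNRNPR, which encodes an RNA-binding protein and starts 325 kb downstream (log2 fold change -0.26 with the block, edgeR q = 0.372), followed by ASAP3 at 465 kb (0.23, edgeR q = 0.400).

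The profiles most like that of KDM1A were sought among 14799 genes with a mean of at least 1 CPM, by the root mean square difference of log2 CPM centred on the WT mean over the 6 libraries. The closest were GRHL2 (0.615), MAL2 (0.789), IAH1 (0.883), LINC02458 (0.917) and SMAD7 (0.930). None was called without the block, and all 5 were called with it, although this likeness chose them for a fall in KO libraries. IAH1, for example, was at 12.6, 21.6 and 11.1 CPM in WT and 3.79, 2.51 and 5.30 CPM in KO libraries.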

How the data were processed

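Per the labels and the study's methods, reads were trimmed with Trimmomatic 0.39 and quantified with Salmon 1.4.0 against GENCODE v36 on GRCh38, and the authors deposited expected counts per gene, which are whole numbers here. How transcripts were summed to genes and whether strand was used are not given in the sources used here. The files carry no coordinates, and those printed come from the GRCh37 GENCODE annotation, through which 58395 identifiers had a symbol. The table held 0 further columns of per-sample values. The deposited counts were fitted with edgeR 4.0.16 in R 4.3.3 (TMM factors, filterByExpr, quasi-likelihood test, q under 0.1, 17672 genes tested), with the replicate block and DESeq2 1.42.0 as alternatives. On simulated counts of 17219 genes, edgeR without the block recovered 98 of 100 genes changed by a log2 fold of 3 and 25 of 99 changed by 1, with 0 false calls. With the block it recovered 100 and 73, with 12 false calls. The simulation gave same-numbered WT and KO libraries a shared replicate effect (SD 0.3 on the log2 scale). The gain with the block was therefore built in and does not show which fit is better for the real counts. Same-numbered WT and KO libraries deviated together (r = 0.553, 0.553 and 0.404 over 17672 genes, which are not independent), against -0.516 to 0.0454 for different numbers. The numbers come from the sample titles. The block lowered the coefficient of variation shared by all genes from 0.2795 to 0.1325. Depth sets a floor of 3 counts per library, for counting error only. Exact permutation tests were two-sided over libraries. The 9 genes, the lists and the tests were chosen with earlier results of these data known. Genes named are the 9, from each list those called or otherwise the 2 with the smallest blocked p, and the 5 most like KDM1A. Cell type markers come from a further list, and MFSD12 was named after its overlap with HMG20B was seen. The values of 1 gene that this rule names are not reported here.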

Additional observations from a re-analysis of the deposited data

How the results depend on the processing

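Across 16 alternatives the log2 fold change of KDM1A ran from -3.01 to -2.95 and passed the threshold in each (q up to 0.0186), and the count of members called remained 1. Without the replicate block 1 gene was called, and 282 were called with it (185 higher, 97 lower), but the replicate block changed no call among the 9 genes. Other counts were 114 when every gene with a count was tested, 95 with DESeq2 (593 with DESeq2 and the block), 1055 with the block and without pair 2, 1 to 26 when single libraries were left out (26 without LSD1 KO replicate 2), and 2 and 367 with the newer edgeR method, added after seeing the data, without and with the block. The edgeR method planned as an alternative is the default of this version and gave no separate value. The difference in KDM1B share was 46.3 percentage points with no length, 43.1 by the union of exons and 46.7 by coding length, the latter added after seeing the data. Small fold changes turned sign when single libraries were left out, with ranges of -0.063 to 0.18 for KDM1B, -0.022 to 0.099 for RCOR3, -0.059 to 0.080 for HDAC1, -0.047 to 0.077 for HDAC2 and -0.23 to 0.54 for HMG20B. RCOR1 (0.13 to 0.27), RCOR2 (-0.39 to -0.12) and PHF21A (0.19 to 0.48) kept their sign, and KDM1B was at -0.033 with the block and without pair 2. The cause was not tested. The lowest count of any of the 9 genes was 283, and with 3 libraries a group the exact tests cannot go below p = 0.1.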
